A study of Mus musculus with 9 samples.

Results

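The expression of 10 genes tied to regulatory T cells and to agonist selection was examined in thymocytes of WT mice and of mice with a knockout of the splicing factor SRSF1. The genes were Foxp3, Ikzf2, Ikzf4, Ctla4, Pdcd1, Icos, Gng4, Lag3, Nt5e and Folr4. They were chosen by name, as the rows of a count table of 53715 Ensembl genes whose identifiers carry these symbols. All 10 were found, Folr4 under its current symbol Izumo1r. Of these, 9 passed the filter on low counts that left 17351 genes for testing, and Gng4 did not.

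The libraries came from thymocytes of C57BL/6 mice aged 6 to 8 weeks, sorted by flow cytometry on TCRβ, CD69, CD24, CD4 and CD8, that is, double-positive cells that have received a T cell receptor signal. There were 3 WT libraries and 2 SRSF1KO libraries, the latter with the genotype Srsf1 fl/fl Lck cre/+. In this design a Cre recombinase driven by the T lineage promoter Lck is meant to remove the floxed gene. Whether the WT animals carried floxed alleles or Cre, and whether each replicate was a separate animal, is not given in the labels, so the p-values reflect no more than the spread among 5 libraries, which may be technical. The series also lists 4 CLIP-seq samples, 2 with SRSF1 antibody and 2 with IgG, which were not analysed here. RNA-seq libraries were made by Smart-seq2, a full-length cDNA method, and held between 36026006 and 38985285 counts. Srsf1 itself stood at 96.9, 122.7 and 103.1 CPM (counts scaled to a common library total, after TMM normalisation) in the WT libraries, here always in the order of their replicate numbers, and at 42.6 and 30.9 CPM in the knockout libraries (log2 fold change −1.55 ± 0.19, SE; edgeR adjusted p = 0.0483). The SRSF1KO mean of Srsf1 was 0.34 of the WT mean, so its RNA was lower but not absent. In this text the log2 fold change is SRSF1KO over WT. A gene was called when its edgeR p-value, adjusted over all 17351 genes, was under 0.05.

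In the thymus most T cell receptors that bind self ligands strongly lead to cell death, but some of these cells are diverted into specialised fates, a process termed agonist selection. Regulatory T cells, which hold immune responses in check and depend on the transcription factor Foxp3, are one such fate, and precursors of intestinal intraepithelial lymphocytes and natural killer T cells are others. Signalled precursors commonly carry PD-1 and the Ikaros family factor Helios, and mature regulatory T cells display CTLA-4, ICOS, CD73 and folate receptor 4 on their surface. In a bulk sample of sorted cells, fewer cells of such a type and less RNA per cell cannot be told apart.

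None of the 9 tested genes was called with edgeR, against 0.0519% of all tested genes called higher and 0.213% called lower in SRSF1KO. Pdcd1 (PD-1), Lag3 and Ikzf2 (Helios) had higher values in both SRSF1KO libraries than in any WT library, and Icos and Nt5e (CD73) had lower values in both. That is 3 and 2 of 9 genes, where 15.2% of all tested genes lay above and 17.8% lay below without overlap. At an unadjusted p under 0.05 there were 1 higher gene (Pdcd1) and 2 lower genes (Icos and Nt5e), against 5.9% and 8.45% of all tested genes. DESeq2, run as an alternative on the same counts, called Pdcd1 higher and Icos lower, where it called 2.29% of genes higher and 3.77% lower. The median log2 fold change of the 9 genes was −0.61, beside −0.01 over all tested genes, with 3 values above 0 and 6 below.

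**Figure D1:**
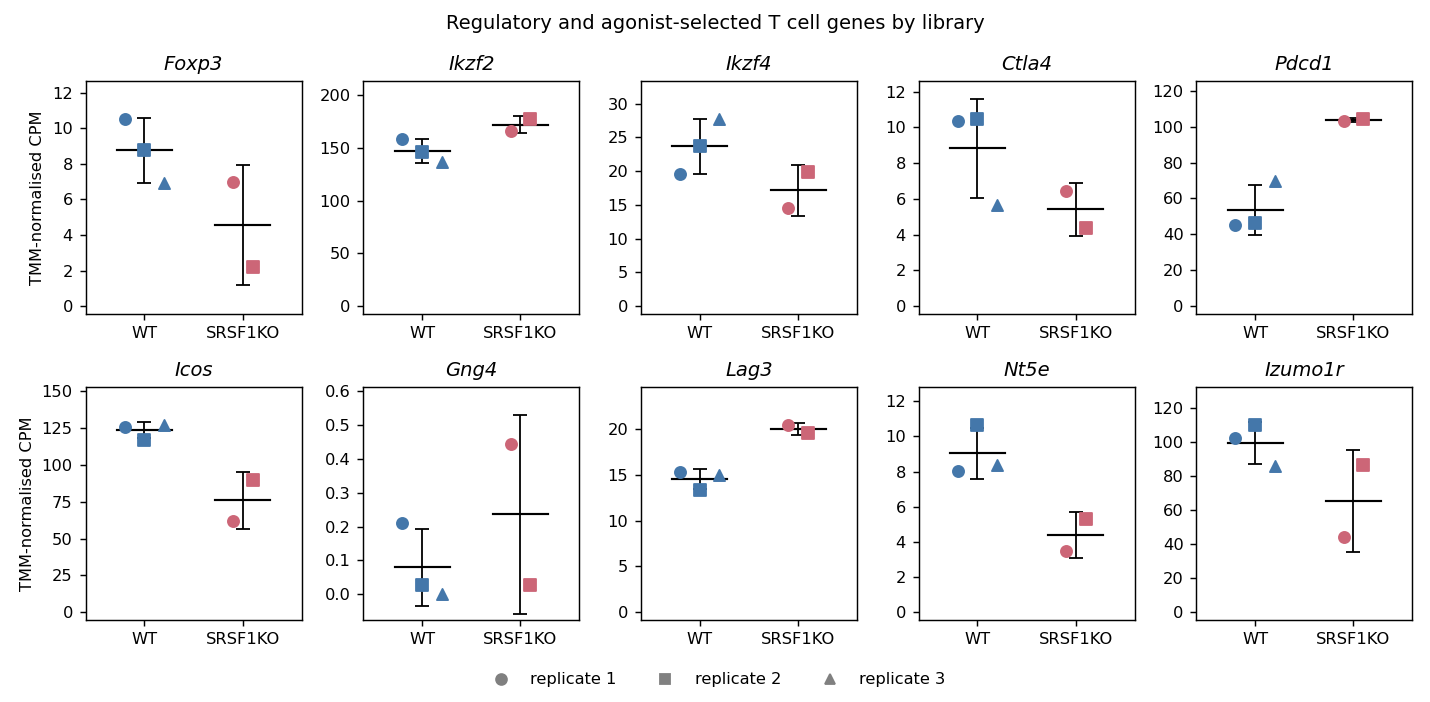
TMM-normalised CPM of each of the 10 genes (vertical axes start at or just under 0 and differ between genes) in 3 WT libraries (blue) and 2 SRSF1KO libraries (red); symbols give the replicate number, horizontal bars the group mean and error bars the SD. Pdcd1 stands at 102.9 and 104.5 CPM in SRSF1KO, above all WT libraries, while the SRSF1KO libraries of Foxp3 and Izumo1r lie far apart.

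Foxp3 (ENSMUSG00000039521.12, chromosome X, 7579676 to 7595243, GRCm38.p6) encodes the forkhead factor that defines regulatory T cells. Its WT libraries held 399, 319 and 267 counts (10.5, 8.77 and 6.93 CPM) and its SRSF1KO libraries 251 and 78 counts (6.96 and 2.18 CPM). SRSF1KO replicate 1 lay within the WT range, just above WT replicate 3, and replicate 2 lay well below every other library. The means were 8.74 ± 1.80 CPM (SD, n = 3) and 4.57 ± 3.38 CPM (SD, n = 2). The fitted difference on the log2 scale was −0.93 ± 0.52 (SE; edgeR adjusted p = 0.472). The value rested on 1 library: it was −0.31 without SRSF1KO replicate 2 and −2.0 without SRSF1KO replicate 1. The lower Foxp3 value in SRSF1KO replicate 2 was therefore not shared by the other knockout library. The RefSeq annotation places the noncoding gene Flicr across the upstream end of Foxp3, with its end at 7581016 inside Foxp3, and Flicr stood at 0.330 to 1.66 CPM in WT and at 2.16 and 0.727 CPM in SRSF1KO. Reads in that overlap cannot be told apart in these gene counts, and the strand setting of the counting is not given in the sources used here.

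The bases just upstream of the annotated start are shown for 3 genes with lower SRSF1KO means, Foxp3, Ctla4 and Nt5e, and for Pdcd1, whose mean was higher, so that these promoters can be read side by side with the values. Each run holds the 250 bases before the start, 5′ to 3′ on the gene's own strand, from RefSeq on GRCm38.p6: Foxp3 at chrX:7579426-7579675 (plus strand), Ctla4 at chr1:60908775-60909024 (plus), Nt5e at chr9:88327359-88327608 (plus) and Pdcd1 at chr1:94052554-94052803 (minus). The promoter table held 6 of the 10 genes, 5 of them with an entry at the outermost start. Capitals mark matches, on either strand, to the NFAT core GGAAA, the RUNX motif TGTGGT, the AP-1 motif TGANTCA, the TATA box TATAAA, the ETS motif CCGGAA or the CRE core TGACGT.
Foxp3: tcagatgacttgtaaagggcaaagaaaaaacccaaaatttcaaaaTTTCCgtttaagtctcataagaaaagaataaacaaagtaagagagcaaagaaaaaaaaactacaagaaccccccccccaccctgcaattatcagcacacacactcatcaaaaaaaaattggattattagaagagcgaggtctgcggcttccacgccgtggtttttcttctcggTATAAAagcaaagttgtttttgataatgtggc
Ctla4: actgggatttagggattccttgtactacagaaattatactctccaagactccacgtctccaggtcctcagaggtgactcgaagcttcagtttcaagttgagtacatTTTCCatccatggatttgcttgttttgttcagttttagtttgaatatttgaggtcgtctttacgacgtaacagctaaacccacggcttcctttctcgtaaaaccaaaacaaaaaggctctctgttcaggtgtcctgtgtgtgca
Nt5e: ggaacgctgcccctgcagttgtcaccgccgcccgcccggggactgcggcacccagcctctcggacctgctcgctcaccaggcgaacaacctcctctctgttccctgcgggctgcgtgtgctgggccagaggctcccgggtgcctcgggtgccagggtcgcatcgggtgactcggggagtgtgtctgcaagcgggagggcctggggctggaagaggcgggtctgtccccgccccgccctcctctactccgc
Pdcd1: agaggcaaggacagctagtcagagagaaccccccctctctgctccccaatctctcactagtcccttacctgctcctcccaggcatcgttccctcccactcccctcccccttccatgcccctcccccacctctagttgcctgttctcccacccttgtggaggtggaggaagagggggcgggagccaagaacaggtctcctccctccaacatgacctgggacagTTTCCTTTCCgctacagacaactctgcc
Foxp3 held 1 NFAT core match, 205 bases before the start, and 1 TATA box match, 32 bases before it. Ctla4 held 1 NFAT core match at 144 bases, and Pdcd1 held 2 adjoining ones at 28 and 23 bases. Nt5e held no match to any of the 6 motifs. The NFAT core occurs in 55.6% of 32851 promoter windows of the same length and the TATA box in 12.4%, the other 4 motifs in 14.0% (RUNX), 6.75% (AP-1), 12.0% (ETS) and 6.47% (CRE core), so these matches are descriptions of letters only. The Nt5e window is 72.0% G and C, the Pdcd1 window 60.4%, the Ctla4 window 42.4% and the Foxp3 window 37.6%.

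Ikzf2 and Ikzf4 encode Helios and Eos, zinc finger factors of the Ikaros family found in regulatory T cells. Ikzf2 (ENSMUSG00000025997.13, chromosome 1, 69531207 to 69687351) stood at 158.5, 146.4 and 136.1 CPM in the WT libraries and at 166.1 and 177.6 CPM in the SRSF1KO libraries. Both SRSF1KO values exceeded the highest WT value, though by little. The log2 fold change was 0.23 ± 0.11 (SE; edgeR adjusted p = 0.394). Ikzf4 (ENSMUSG00000002578.17, chromosome 10, 128630839 to 128669671) stood at 19.6, 23.7 and 27.8 CPM in WT and at 14.5 and 19.8 CPM in SRSF1KO. SRSF1KO replicate 2 lay just above the lowest WT library, so the groups overlapped, and the log2 fold change was −0.46 ± 0.25 (SE; edgeR adjusted p = 0.462). It was −0.25 without SRSF1KO replicate 1. Ikaros itself, Ikzf1, stood at 700.3, 641.8 and 738.6 CPM against 873.2 and 980.9 CPM (0.42 ± 0.10, SE; edgeR adjusted p = 0.135), and DESeq2 called it higher (adjusted p = 0.0053).

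Pdcd1 (ENSMUSG00000026285.7, chromosome 1, 94038305 to 94052553) encodes PD-1, an inhibitory receptor induced by T cell receptor signalling. Its WT values were 45.1, 46.3 and 69.8 CPM and its SRSF1KO values 102.9 and 104.5 CPM. The SRSF1KO libraries were nearly equal and both above every WT library, of which replicate 3 was the highest. The means were 53.8 ± 13.9 CPM (SD, n = 3) and 103.7 ± 1.15 CPM (SD, n = 2), a 1.93-fold ratio. The log2 fold change was 0.95 ± 0.20 (SE) and did not pass in edgeR (adjusted p = 0.122), while DESeq2 gave 0.96 ± 0.22 (SE; adjusted p = 5.9e-04). Leaving out any 1 of the 5 libraries gave values between 0.85 and 1.19.

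Lag3 and Ctla4 encode the other inhibitory receptors among the 10 genes. Lag3 (ENSMUSG00000030124.2, chromosome 6, 124904359 to 124912434), a relative of CD4 that binds MHC class II, stood at 15.3, 13.4 and 15.0 CPM in WT and at 20.5 and 19.6 CPM in SRSF1KO. The groups did not overlap, and the log2 fold change was 0.46 ± 0.21 (SE; edgeR adjusted p = 0.381). Its nearest tested neighbour, Ptms, at a distance of 1241 bases, overlapped between the groups, at 23.7, 30.1 and 32.1 CPM in WT and 38.95 and 28.4 CPM in SRSF1KO (0.23 ± 0.22, SE; edgeR adjusted p = 0.721). Cd4, on the other side at 16112 bases, lay above WT in the same libraries, at 1229 and 1118 CPM against 767.1 to 932.2 CPM (0.45 ± 0.11, SE; edgeR adjusted p = 0.136). The next gene on each side, Gpr162 (0.97 ± 0.34, SE; edgeR adjusted p = 0.267) and Mlf2 (0.14 ± 0.10, SE; edgeR adjusted p = 0.601), also lay above WT in both SRSF1KO libraries. Of all tested genes, 15.2% lay so. Ctla4 (ENSMUSG00000026011.13, chromosome 1, 60909025 to 60915832), whose product competes with CD28 for its ligands CD80 and CD86, stood at 10.4, 10.5 and 5.63 CPM in WT and at 6.46 and 4.36 CPM in SRSF1KO. WT replicate 3 was lower than SRSF1KO replicate 1, so the groups overlapped. The log2 fold change was −0.70 ± 0.40 (SE; edgeR adjusted p = 0.485), and −0.43 without SRSF1KO replicate 2.

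Icos (ENSMUSG00000026009.14, chromosome 1, 60960773 to 61000322) encodes a costimulatory receptor of the CD28 family and lies 44941 bases from Ctla4. It stood at 125.9, 117.1 and 127.2 CPM in WT and at 62.2 and 89.6 CPM in SRSF1KO. The WT libraries lay close together and both SRSF1KO libraries lay below them, replicate 1 further than replicate 2. The means were 123.4 ± 5.49 CPM (SD, n = 3) and 75.9 ± 19.4 CPM (SD, n = 2). The log2 ratio of −0.70 ± 0.17 (SE) did not pass in edgeR (adjusted p = 0.136) and was called by DESeq2 (−0.68 ± 0.18, SE; adjusted p = 0.0055). Without SRSF1KO replicate 1 it was −0.46. Cd28, the third receptor gene of this chromosome 1 cluster (60746388 to 60773359) and the main costimulatory receptor of T cells, had the opposite sign: 481.0, 529.1 and 580.3 CPM in WT and 850.8 and 732.6 CPM in SRSF1KO (0.58 ± 0.11, SE; edgeR adjusted p = 0.0978), called higher by DESeq2 (adjusted p = 2.1e-04). The difference between Icos and Cd28 was not tested.

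Nt5e (ENSMUSG00000032420.8, chromosome 9, 88327609 to 88372089) encodes CD73, the surface enzyme that turns AMP into adenosine. It stood at 8.05, 10.7 and 8.36 CPM in WT and at 3.47 and 5.32 CPM in SRSF1KO. No SRSF1KO library reached the WT range. The log2 fold change of −1.04 ± 0.36 (SE) did not pass (edgeR adjusted p = 0.260, DESeq2 adjusted p = 0.122).

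Izumo1r (listed as Folr4, ENSMUSG00000031933.17, chromosome 9, 14885814 to 14903951) encodes folate receptor 4, a surface marker of regulatory T cells that is also the egg receptor for sperm. It stood at 102.6, 110.3 and 86.3 CPM in WT and at 44.3 and 86.5 CPM in SRSF1KO. SRSF1KO replicate 1 was far below WT, and replicate 2 lay just above WT replicate 3. The log2 fold change was −0.61 ± 0.27 (SE; edgeR adjusted p = 0.365), but −0.20 without SRSF1KO replicate 1 and −1.15 without SRSF1KO replicate 2. Gpr83, a G protein-coupled receptor gene of regulatory T cells that lies 15025 bases away, stood at 43.1, 29.2 and 35.4 CPM in WT and at 9.24 and 25.2 CPM in SRSF1KO, also lowest in SRSF1KO replicate 1 (−1.06 ± 0.41, SE; edgeR adjusted p = 0.309).

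Gng4 (ENSMUSG00000021303.14, chromosome 13, 13784059 to 13827895), a γ subunit of heterotrimeric G proteins, was close to the limit of detection. It had 8, 1 and 0 counts in the WT libraries and 16 and 1 in the SRSF1KO libraries. The library without a count allows up to 3 counts, or 0.0779 CPM, by counting error alone. No fold change was derived, and a difference was not detectable at this depth. Its relative Gng2 stood at 52.7, 39.2 and 49.98 CPM in WT and at 20.4 and 34.6 CPM in SRSF1KO, a value looked up after the results were seen (−0.78 ± 0.26, SE; edgeR adjusted p = 0.249).

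The genes beside the 10 in the genome were read from the same fit, the nearest 2 by midpoint on either side of each. Of these 36 distinct tested neighbours that are not listed genes, edgeR called 0 and DESeq2 called 3, with 6 at an unadjusted p under 0.05, both directions together. Those 6 were Cd4, Gpr162 and Gm11581, which were higher, and Rps26, Ing5 and Gpr83, which were lower. Over all 17351 tested genes, 2490 reached that p in either direction (5.9% higher and 8.45% lower). DESeq2 called 1011 in either direction (2.29% higher and 3.77% lower). Whether the neighbours differ from these shares was not tested. The 3 called by DESeq2 were Cd4, Rps26 beside Ikzf4 and Ing5 near Pdcd1. Rps26, a ribosomal protein gene 4333 bases from Ikzf4, lay below WT in both SRSF1KO libraries like the Ikzf4 mean (−0.39 ± 0.10, SE; edgeR adjusted p = 0.165), while Suox, only 216 bases from Ikzf4 on the other side, stood at −0.04 ± 0.14 (SE; edgeR adjusted p = 0.944). Ing5, 216204 bases from Pdcd1, had the opposite sign to it (−0.92 ± 0.27, SE; edgeR adjusted p = 0.197). The groups overlapped for Snx14, 4666 bases from Nt5e (0.12 ± 0.19, SE; edgeR adjusted p = 0.859), and for Lyst, 5256 bases from Gng4 (0.25 ± 0.16, SE; edgeR adjusted p = 0.531). The closest of these neighbours to Ikzf2 was Bard1, at 1340184 bases (−0.14 ± 0.85, SE; edgeR adjusted p = 0.972).

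**Figure D2:**
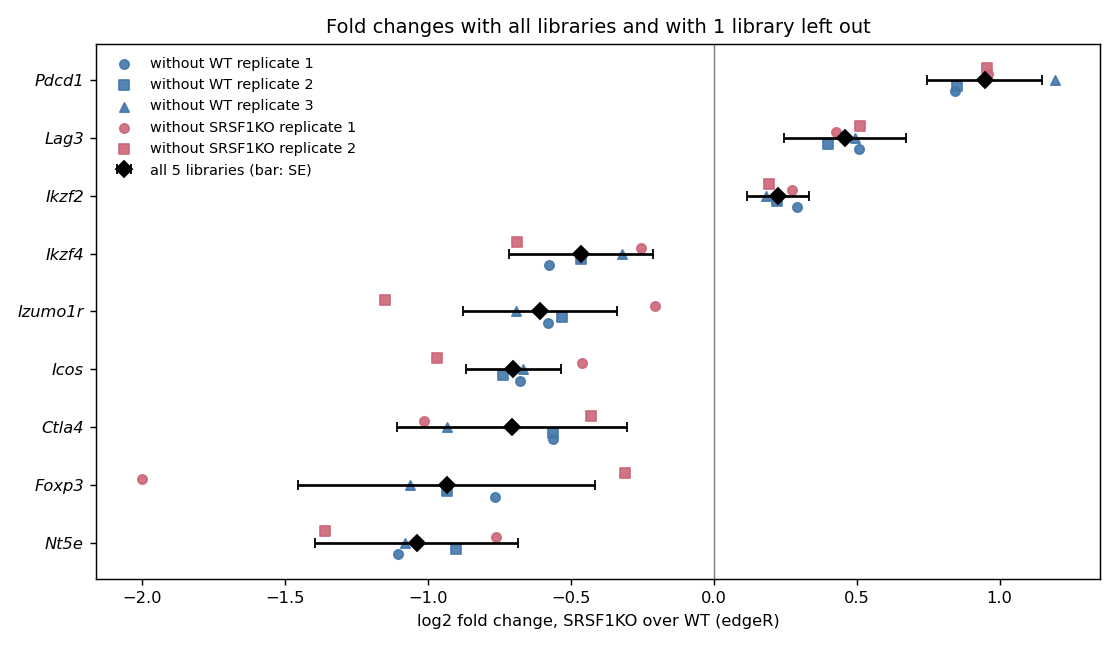
Horizontal axis: log2 fold change, SRSF1KO over WT, from edgeR for the 9 tested genes; black diamonds use all 5 libraries with SE bars, blue symbols leave out 1 WT library and red symbols 1 SRSF1KO library. Every value keeps its sign, and Foxp3 runs from −2.0 to −0.31 according to which SRSF1KO library is left out.

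The 2 SRSF1KO libraries differed from each other in how the lower genes were distributed. Both lay below the WT mean for 6 of the 9 genes and above it for 3. Relative to the WT mean on the log2 CPM scale, replicate 1 stood at −1.16 for Izumo1r, −0.99 for Icos, −1.35 for Nt5e and −0.69 for Ikzf4, against −0.20, −0.46, −0.75 and −0.24 in replicate 2. Foxp3 and Ctla4 had the reverse order, with −0.31 and −0.39 in replicate 1 and −1.96 and −0.95 in replicate 2. For the higher genes the libraries were alike: 0.97 and 0.99 for Pdcd1, 0.49 and 0.43 for Lag3, and 0.18 and 0.28 for Ikzf2.

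**Figure D3:**
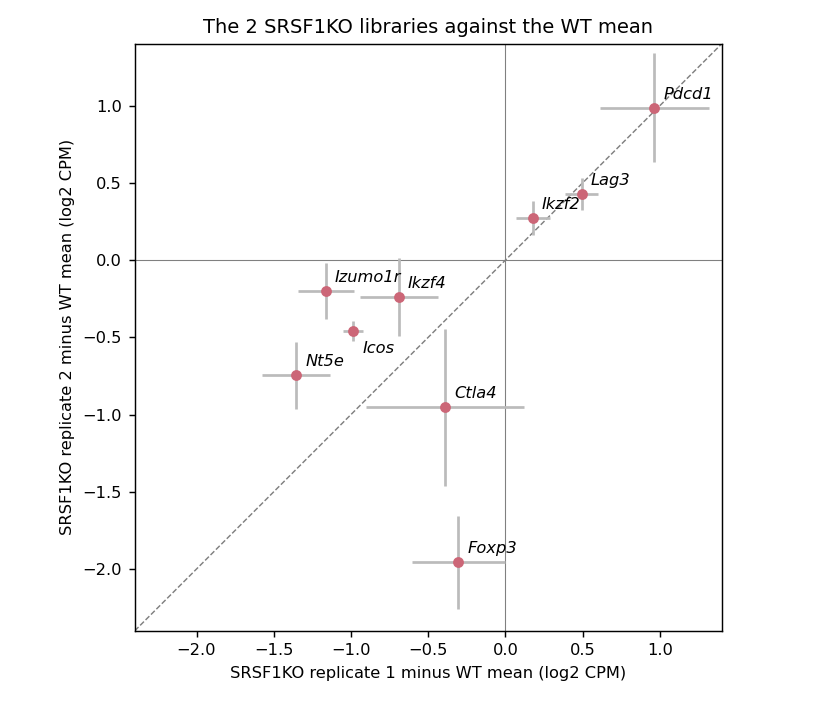
Each of the 9 tested genes by its difference from the WT mean (log2 CPM) in SRSF1KO replicate 1 (horizontal) and replicate 2 (vertical); grey bars are the SD of the 3 WT libraries and the dashed line marks equal values. Pdcd1, Lag3 and Ikzf2 lie near the line, Izumo1r, Ikzf4, Icos and Nt5e above it, and Foxp3 and Ctla4 below it.

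The SRSF1KO libraries also differed in sex-linked transcripts, replicate 1 sharing a male pattern with WT replicate 2, and replicate 2 a female pattern with WT replicates 1 and 3. Within the male pattern the log2 CPM difference was −0.33 for the X-linked gene Foxp3, −1.31 for Izumo1r, −1.61 for Nt5e, −0.91 for Icos and 1.15 for Pdcd1. Within the female pattern the same differences were −1.94, −0.12, −0.62, −0.50 and 0.90. Sex pattern and library cannot be told apart here, since each pattern holds 1 SRSF1KO library.

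Markers of cells in and near the sort gate were read in the same libraries, and edgeR called none of them. All 13 genes of the gate and of double-positive cells passed the filter, among them Cd8a (1458 to 1829 CPM over the 5 libraries), Cd24a (182.7 to 300.9 CPM) and Cd69 (203.5 to 469.3 CPM). Their sum was 11701 to 12850 CPM in WT and 15119 and 12300.1 CPM in SRSF1KO. Of the 13 genes, 8 had log2 fold changes above 0 and 5 below, from −0.47 to 0.77, with a median of 0.20. DESeq2 called 3 of them higher (Cd4, Rag1 and Dntt) and edgeR called 0, with 5 higher and 1 lower at an unadjusted p under 0.05. For these and the markers below, the shares over all tested genes were 5.9% higher and 8.45% lower at that p. With DESeq2 they were 2.29% and 3.77%. Without overlap between the groups, 15.2% of all tested genes lay above WT and 17.8% below. Rag1 and Dntt, used in receptor rearrangement, stood higher in SRSF1KO, with Rag1 at 1142 and 765.9 CPM against 513.4 to 663.3 CPM and Dntt at 1950.5 and 1286 CPM against 898.6 to 1059.6 CPM. The summed level of 8 markers of single-positive and mature T cells was 1322 to 1479.9 CPM in WT and 770.04 and 1116 CPM in SRSF1KO, with S1pr1, Ccr7 and Runx3 below WT in both SRSF1KO libraries. DESeq2 called these 3 of 8 lower and edgeR called 0, with 3 lower at an unadjusted p under 0.05. For γδ T and NK cells the sum over 8 markers was 217.8 to 231.3 CPM in WT and 99.5 and 114.9 CPM in SRSF1KO. Nkg7 made up most of the difference (165.9 to 186.6 against 25.0 and 55.2 CPM). Klrd1 lay lower, Trdc lay higher (27.5 to 32.1 against 56.9 and 43.9 CPM), and the defining NK genes Ncr1 and Eomes had 0 counts in 3 and 4 of the 5 libraries. Of 6 tested markers DESeq2 called Nkg7 (adjusted p = 6.3e-13) and Klrd1 (adjusted p = 0.016) lower and Trdc higher (adjusted p = 0.0068). With edgeR 0 were called, with 1 higher and 2 lower at an unadjusted p under 0.05. For iNKT and innate-like T cells the sum over 6 markers was 447.03 to 491.9 CPM in WT and 417.1 and 371.3 CPM in SRSF1KO. Most of it came from Il2rb (224.3 to 256.8 against 88.2 and 140.3 CPM) and Slamf6 (170.4 to 199.7 against 281.4 and 195.7 CPM). Il2rb and Tbx21 (1.65 to 7.79 against 1.03 and 0.560 CPM) lay below WT and Gzma above WT in both SRSF1KO libraries. The defining gene Zbtb16 stood at 7 to 44 counts in WT and 1 count in each SRSF1KO library. Of these 6 markers DESeq2 called Il2rb lower (adjusted p = 2.7e-06) and edgeR called 0, with 1 higher and 3 lower at an unadjusted p under 0.05. The 6 markers of recirculating regulatory T cells summed to 68.5 to 83.3 CPM in WT and 54.8 and 68.3 CPM in SRSF1KO, most of it from Ccr8, with Ccr6 and Cxcr3 under 7 CPM and Klrg1 and S100a4 at 0 to 9 counts. The erythroid sum was 1.53 to 11.1 CPM in WT and 95.2 and 22.2 CPM in SRSF1KO. All 4 of its markers, Hba-a1, Hba-a2 and Hbb-bt among them, lay above WT in both SRSF1KO libraries. At an unadjusted p under 0.05 all 4 were higher, and DESeq2 called 2 and edgeR 0. B cell sums were 492.9 to 568.0 CPM in WT and 762.0 and 559.2 CPM in SRSF1KO, nearly all from Ighm, with Ms4a1 and Ebf1 under 5 CPM and Pax5 at 1 to 11 counts. Myeloid and dendritic sums were 450.5 to 660.0 CPM in WT and 530.6 and 369.6 CPM in SRSF1KO, led by Cd74 and Cst3, with H2-Ab1 at 26.1 to 93.5 CPM and Itgax under 3 CPM. Thymic epithelial sums were 51.3 to 60.1 CPM and 61.1 and 42.3 CPM, mostly from Ly75, Epcam and Ccl25, with Krt8 under 4 CPM, and Krt5 and Foxn1 at 0 in 3 and 2 libraries. DESeq2 called 0 markers of the recirculating regulatory T cell, B cell, myeloid and dendritic, and thymic epithelial lists. At an unadjusted p under 0.05 in edgeR, 1 B cell marker was higher and 1 thymic epithelial marker lower. The part of these markers in the values of the 10 genes was not tested.

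Among 27 other genes of thymic regulatory T cells, 25 were tested and most had lower values in SRSF1KO. None was called with edgeR, while 11 lower and 1 higher passed an unadjusted p under 0.05 and DESeq2 called 8 lower and 1 higher. Over all tested genes, 8.45% were lower and 5.9% higher at that p, and DESeq2 called 3.77% lower and 2.29% higher. The median log2 fold change of the 25 genes was −0.64, −0.32 without SRSF1KO replicate 1 and −0.42 without WT replicate 3, beside −0.01 over all tested genes. The members with the smallest p were Capg, an actin-capping protein gene, Il2rb, a subunit of the interleukin-2 receptor, and Itgae, the CD103 integrin subunit. Il2rb is also on the list of innate-like T cell markers. Capg stood at 63.4, 66.6 and 71.8 CPM in WT and at 30.0 and 36.1 CPM in SRSF1KO (−1.03 ± 0.16, SE; edgeR adjusted p = 0.0628). Il2rb stood at 224.3, 248.3 and 256.8 CPM against 88.2 and 140.3 CPM (−1.09 ± 0.19, SE; edgeR adjusted p = 0.0816). Of these 3 Itgae had the widest gap, at 143.8, 131.6 and 185.1 CPM against 29.9 and 65.2 CPM (−1.69 ± 0.32, SE; edgeR adjusted p = 0.0971). In each of these 3 genes SRSF1KO replicate 1 was the lowest library.

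The 31 regulators of Foxp3 transcription, all tested, split into 18 with log2 fold changes above 0 and 13 below, with a median of 0.08, or 0.03 without WT replicate 1. None was called with edgeR, 5 higher and 6 lower passed an unadjusted p under 0.05, and DESeq2 called 4 higher and 3 lower. The shares over all tested genes were 5.9% and 8.45% at that p, and 2.29% and 3.77% with DESeq2. Runx3, a Runt family factor of the CD8 lineage, stood at 118.7, 102.4 and 110.9 CPM in WT and at 38.3 and 57.7 CPM in SRSF1KO (−1.20 ± 0.19, SE; edgeR adjusted p = 0.0637). Foxo1, a forkhead factor needed for regulatory T cell development, stood at 64.6, 77.6 and 60.8 CPM against 27.9 and 35.4 CPM (−1.10 ± 0.18, SE; edgeR adjusted p = 0.0712). Satb1, a chromatin organiser that acts before Foxp3 is switched on, lay on the other side, at 1595, 1602 and 1557 CPM against 2077 and 1957 CPM (0.35 ± 0.08, SE; edgeR adjusted p = 0.127).

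Genes of strong T cell receptor signalling and agonist selection were split. Of 20, all tested, 10 had values above 0 and 10 below, with a median of 0.00 that was −0.28 without SRSF1KO replicate 2. None was called with edgeR, 3 higher and 5 lower passed an unadjusted p under 0.05, and DESeq2 called 2 higher and 3 lower. The shares over all tested genes were 5.9% and 8.45% at that p, and 2.29% and 3.77% with DESeq2. Irf4, a transcription factor induced in proportion to receptor signal, stood at 16.3, 23.1 and 11.7 CPM in WT and at 5.24 and 4.50 CPM in SRSF1KO (−1.80 ± 0.36, SE; edgeR adjusted p = 0.11). Xcl1, a chemokine gene, stood at 4.49, 5.25 and 6.00 CPM against 1.165 and 1.06 CPM (−2.23 ± 0.46, SE; edgeR adjusted p = 0.116). Tnfrsf9, the costimulatory receptor 4-1BB, stood at 80.2, 79.0 and 114.4 CPM against 48.3 and 49.8 CPM (−0.89 ± 0.19, SE; edgeR adjusted p = 0.122). Pdcd1 had the opposite sign to these 3 genes, the members with the smallest p, and the same sign as 10 of the 20.

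Of 16 other genes of the CD28 family, coinhibitory receptors and their ligands, 14 were tested. None was called with edgeR, 2 higher and 3 lower passed an unadjusted p under 0.05, and DESeq2 called 1 higher (Cd28) and 2 lower. For this list and the 2 below, the shares over all tested genes were 5.9% higher and 8.45% lower at that p. With DESeq2 they were 2.29% and 3.77%. The median of the 14 genes was 0.24, but −0.27 when genes averaging under 5 CPM were left out, so it has no settled sign. Cd226, an activating receptor, stood at 75.4, 72.9 and 84.9 CPM in WT and at 33.1 and 44.5 CPM in SRSF1KO (−1.0 ± 0.17, SE; edgeR adjusted p = 0.0746), and Cd160 stood at 23.0, 19.1 and 27.99 CPM against 5.88 and 10.5 CPM (−1.51 ± 0.33, SE; edgeR adjusted p = 0.127). Among 26 relatives of the 10 genes, 20 were tested with a median of −0.11, which was −0.00 without SRSF1KO replicate 1, −0.07 without WT replicate 1 and also without WT replicate 2, and −0.23 without SRSF1KO replicate 2. None was called with edgeR, 3 higher and 4 lower passed an unadjusted p under 0.05, and DESeq2 called 3 higher, among them Ikzf1 and the cytosolic nucleotidase gene Nt5c2 (0.62 ± 0.15, SE; edgeR adjusted p = 0.142), and 1 lower, Nt5c3b (−0.45 ± 0.11, SE; edgeR adjusted p = 0.146). Of 16 signalling partners of these receptors, all tested, the median was 0.03, and it lay between −0.01 and 0.09 with any 1 library left out. None was called with edgeR, 2 higher and 1 lower passed an unadjusted p under 0.05, and DESeq2 called 1, Trat1, an adaptor of the T cell receptor complex, at 108.1, 108.8 and 124.8 CPM in WT and 196.5 and 164.4 CPM in SRSF1KO (0.66 ± 0.12, SE; edgeR adjusted p = 0.0942). Ptpn6, the SHP-1 phosphatase, stood at −0.36 ± 0.11 (SE; edgeR adjusted p = 0.225) and Pik3ca at 0.50 ± 0.21 (SE; edgeR adjusted p = 0.340).

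**Figure D4:**
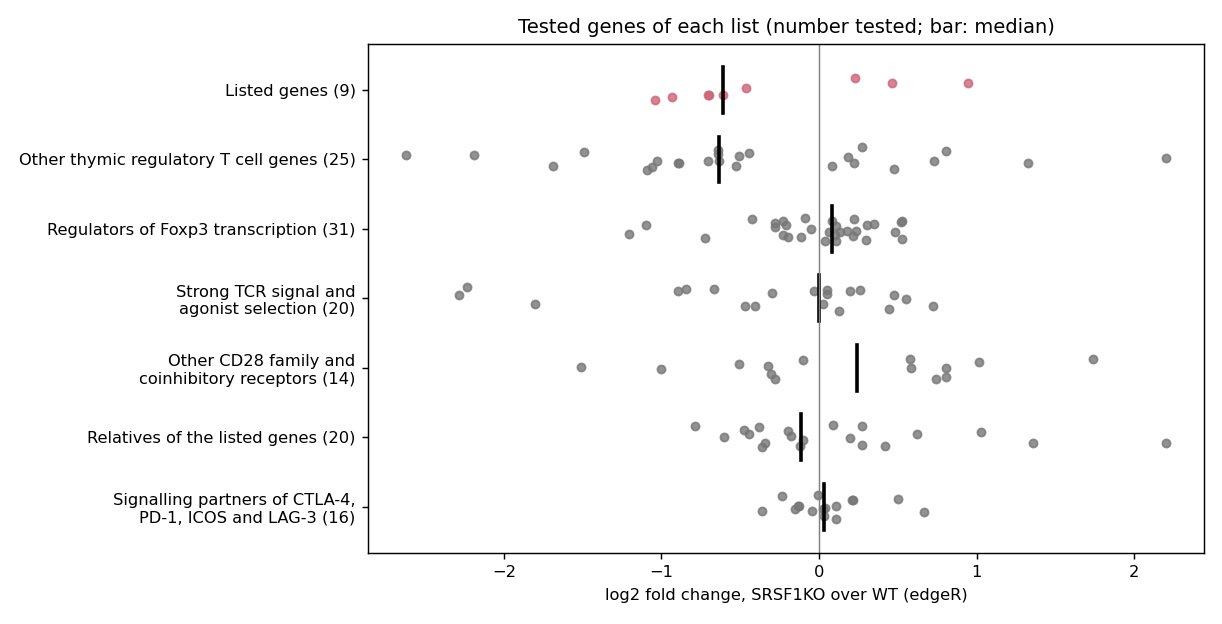
Log2 fold changes, SRSF1KO over WT from edgeR, of the tested members of each list (numbers in brackets; vertical scatter within a row has no meaning), with black bars at the medians. The 9 listed genes (red) have a median of −0.61 and the 25 other regulatory T cell genes one of −0.64, while the remaining medians drawn lie between −0.11 and 0.24. Marker lists are not drawn. Their medians were −0.63 for iNKT and innate-like T cells, −0.43 for recirculating regulatory T cells and −0.33 for single-positive and mature T cells. Myeloid and γδ T and NK markers stood at −0.26 and −0.06. Double-positive, B cell, thymic epithelial and erythroid markers stood at 0.20, 0.31, 0.33 and 3.24.

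The genes most like each of the 9 tested genes across the libraries were found by the Euclidean distance between log2 CPM values centred on their mean over the 5 libraries, among 10838 genes averaging 1 CPM or more. For Foxp3 the nearest genes were Fanci (distance 0.35), Oas1c (0.41) and Dnase1l1 (0.45), each lowest in SRSF1KO replicate 2. Those nearest to Pdcd1 were Itih5 (0.12), Nudt22 (0.21) and Caskin2 (0.22), all with both SRSF1KO libraries above WT. Icos lay closest to Shisa5 (0.08), Wars (0.09) and Tmem221 (0.09). Nt5e had Ccr7 (0.17), Igfbp4 (0.19) and Sgms1 (0.19), the first a chemokine receptor gene of maturing thymocytes, and Izumo1r had Rapgef4 (0.13), Lgals4 (0.20) and Mllt6 (0.21). For Lag3 they were Ccng1 (0.08), Themis (0.09) and Hdac5 (0.09), for Ikzf2 Casp6 (0.05), Tmcc3 (0.05) and Itga5 (0.06), for Ikzf4 Noa1 (0.09), Atg9a (0.10) and Emc1 (0.13), and for Ctla4 Zfp287 (0.17), Arid3a (0.28) and the Ikaros family gene Ikzf5 (0.28). These distances describe 5 libraries that the genes share, and no test was made of them.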

How the data were processed

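Gene expression was compared between 3 WT and 2 SRSF1KO libraries of sorted, signalled double-positive thymocytes. The deposited table holds raw counts per Ensembl gene, made by the authors and not normalised. Tools listed in the submitters' processing notes, without roles, include HTSeq 0.6.1, DESeq2 1.20.0, FastQC 0.11.5, Trim Galore, cutadapt 1.17, HOMER 4.9.1 and the aligner Bowtie2 2.1.0, with the genome build mm10. Whether Bowtie2 aligned the RNA-seq reads, and which annotation release and strand setting were used, is not given in the sources used here. Symbols were matched for 53620 of 53715 identifiers, and coordinates and promoters are from RefSeq on GRCm38.p6, the assembly behind mm10.

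Genes were tested by edgeR 4.0.16 under R 4.3.3 with its quasi-likelihood F test (robust fit, group as the only term), with TMM scaling, the default filterByExpr filter and Benjamini-Hochberg adjustment over 17351 genes. Standard errors come from the fold change and the F statistic. Log2 CPM values use a prior count of 2. The alternatives were other scalings, no filter or a minimum average of 5 CPM, DESeq2 1.42.0, limma-voom (limma 3.58.1), the replicate number as a block, a term for sex pattern and leaving out each library. When 1 SRSF1KO library is left out, the other is assumed to vary like WT. The fits were also run on simulated counts with known fold changes, and the outcome is not given here. No library pair agreed within sampling noise (chi-square per degree of freedom of 43.1 or more).

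The 10 genes, the other lists and the sex term were chosen with earlier results of these data known. The lists overlap, with Il2rb, Tnfrsf9, Runx3, Entpd1, Ikzf3 and Tigit among the shared genes, so their counts are not independent. Named were the 10 genes, Srsf1, the 3 members with the smallest p of each list and the 3 most similar genes. Of the 2 nearest tested neighbours on either side, the text names those picked after their values were seen and counts the rest. Exceptions are named as such, or are markers given only to show low counts. From each of the innate-like and erythroid lists 1 gene was left out and is not reported here.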

Additional observations from a re-analysis of the deposited data

How the results depend on the processing

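The signs of the fold changes of the 9 tested genes held under all 13 alternatives where a value could be had, and 111 of 117 values stayed on the same side of the threshold. The other 6 were those of Pdcd1 and Icos without the filter on low counts, over genes averaging 5 CPM or more and with DESeq2, each of which called 1 of the 9 genes higher and 1 lower. Pdcd1 then had adjusted p-values of 0.0019, 0.018 and 5.9e-04, and Icos of 0.013, 0.039 and 0.0055. With 1 library left out 0 of the 9 genes were called higher and 0 lower.

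Over all genes, 9 were called higher and 37 lower. These counts were 3 and 7 with DESeq2 size factors, 198 and 346 without the filter, 143 and 233 at 5 CPM or more, 382 and 629 with DESeq2, 23 and 71 with limma-voom and 0 and 5 with a term for sex pattern. With 1 library left out they ran from 0 to 21 and from 0 to 67, the 0 counts being those without WT replicate 1, 2 or 3, where an unadjusted p under 0.05 was reached by 1903, 2005 and 2079 genes.

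For the other lists, where edgeR called 0 genes, the counts without the filter, at 5 CPM or more and with DESeq2 were as follows. Other regulatory T cell genes had 5, 6 and 8 lower, and 1 higher with DESeq2. Regulators of Foxp3 had 3, 2 and 4 higher and 2, 2 and 3 lower. Strong receptor signal genes had 1, 1 and 2 higher and 2, 2 and 3 lower, and CD28 family genes 1 higher and 2 lower each time. Relatives of the 10 genes had 2, 2 and 3 higher, and 1 lower with DESeq2, and signalling partners 1 higher each time. With limma-voom 3 regulatory T cell genes were lower and 1 Foxp3 regulator was called in each direction. With 1 library left out, 0 to 2 regulatory T cell genes and 0 to 1 Foxp3 regulators were lower. The median of the CD28 family list was −0.18 without the filter, −0.27 at 5 CPM or more and −0.19 with the replicate block. With 1 library left out it ran from −0.30 to 0.31, that of regulatory T cell genes from −0.92 to −0.32, that of strong receptor signal genes from −0.28 to 0.04, and that of relatives of the 10 genes from −0.23 to −0.00. The cause was not tested.

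With the replicate number as a block edgeR called 0 genes higher and 0 lower, with 1640 at an unadjusted p under 0.05, and Pdcd1 stood at 1.18 (adjusted p = 0.314) and Icos at −0.70 (adjusted p = 0.464). The labels do not say that a number marks a shared animal or day. Deviations from the group means of same-numbered libraries correlated at −0.02 and 0.03. The deviations of 2 SRSF1KO libraries mirror each other, so these values cannot show whether a day or preparation was shared.

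Precision is limited by 2 SRSF1KO libraries that disagree on Foxp3 and Izumo1r, and by low counts for Gng4. Gene-level counts hold no information on splicing of these genes.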

Other observations

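CD39 and CD73 act in sequence on the surface of regulatory T cells to turn extracellular ATP into adenosine. Their genes had opposite signs in these libraries, a pair picked after the values were seen. Entpd1, which encodes CD39, had WT values of 1.56, 0.577 and 1.14 CPM and SRSF1KO values of 3.58 and 6.52 CPM, with no overlap (log2 fold change 2.20 ± 0.60, SE; edgeR adjusted p = 0.176, DESeq2 adjusted p = 0.029). Nt5e, which encodes CD73, had a log2 fold change of −1.04 ± 0.36 (SE). The difference between the fold changes was not tested.

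Among the 9 tested genes, Ikzf2 and Lag3 had the most similar course over the 5 libraries (distance 0.34 between centred log2 CPM values), followed by Icos with Izumo1r and Icos with Ikzf4 (0.46 each). Foxp3 and Pdcd1 were the farthest apart (2.75). The listed gene closest to Foxp3 was Ctla4, at 1.0, farther than its 3 nearest genes outside the list.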
